A study of Mus musculus with 12 samples.

Results

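The genes described here are 9 members of the Notch pathway and of the choice between absorptive and secretory fates in the intestine: the receptors *Notch1* and *Notch2*, the ligands *Jag1*, *Dll1* and *Dll4*, the receptor-modifying enzyme *Lfng*, the target gene *Hes1*, and the secretory lineage factors *Atoh1* and *Gfi1*. They were chosen by name from a table of 54532 genes, and all 9 were among the 12740 genes with at least 1 FPKM (fragments per kilobase of gene, scaled to the fragments of the library) in at least 3 of 12 libraries. Poly-A RNA was sequenced from mouse colonoids, which are organoids grown from colonic epithelial stem cells, here of mice aged 8 to 12 weeks, and kept in medium conditioned by L-WRN cells. The 4 groups of 3 libraries were control (*Hmox1* fl/fl) with vehicle, control with hemin, KO (*Hmox1* ΔIEC) with vehicle and KO with hemin. Both genotypes carry the floxed *Hmox1* alleles, and the KO adds Cre under the promoter of *Vil1*, a gene of the intestinal epithelium. Hemin, a ferric form of heme, was given at 200 μM for 24 hours. The label of replicate 3 with hemin spells its KO genotype out as floxed alleles with *Vil1* Cre. The labels do not say how many mice or cultures stand behind the 3 libraries of a group, so p-values measure only the spread between libraries, which may be technical.

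Notch signalling passes between neighbouring cells. A Delta or Jagged ligand on one cell binds a Notch receptor on the next, the receptor is cut by ADAM proteases and γ-secretase, and its intracellular part enters the nucleus to act with RBPJ. In the intestinal crypt, Notch-active cells express *Hes1*, which represses *Atoh1* and directs cells to the absorptive fate, whereas cells that express *Atoh1* become secretory and themselves display Delta ligands.

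Several features of the libraries bear on the comparisons. Libraries held from 11648801 to 25101868 fragments on annotated genes. *Gm23935* held between 16.8% and 29.0% of the summed FPKM in 3 libraries, replicate 1 of control with vehicle, replicate 1 of control with hemin and replicate 2 of KO with hemin, and at most 2.81% in the others. *Hmox1* lay between 6.85 and 7.90 FPKM in control and between 2.11 and 3.14 in KO libraries with vehicle. With hemin it lay between 382 and 503 FPKM in control and between 1271 and 1393 in KO libraries, so it was higher in the group whose label says it was deleted, and these libraries are called labelled KO throughout. *Hoxb13*, a gene of positional identity in the distal colon, had 0 fragments in each of the 6 control libraries and between 104 and 134 FPKM in the 6 labelled KO, so the genotype and the origin of the cultures cannot be told apart. All 7 epithelial marker genes passed the filter on low values, and none of 11 stromal, immune and endothelial markers did, with sums of at most 1.07 FPKM.

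The 9 genes spanned a wide range of expression. *Hes1* had the highest level in every group, with means from 28.8 FPKM in control with hemin to 46.1 FPKM in control with vehicle. *Atoh1* came second with vehicle in both genotypes, at means of 13.9 and 28.1 FPKM. *Gfi1* and *Dll1* were at the low end, with means of 0.555 FPKM for *Gfi1* in labelled KO with hemin and 0.552 FPKM for *Dll1* in control with hemin. The fewest fragments behind a value were 16, for *Gfi1*, the most were 1592, for *Hes1*, and no member was at or under 3 fragments in any library. *Dll1* varied most between groups, with its highest group mean 9.95-fold above its lowest, followed by *Atoh1* at 7.68-fold. *Hes1* varied least, at 1.60-fold.

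**Figure D1:**
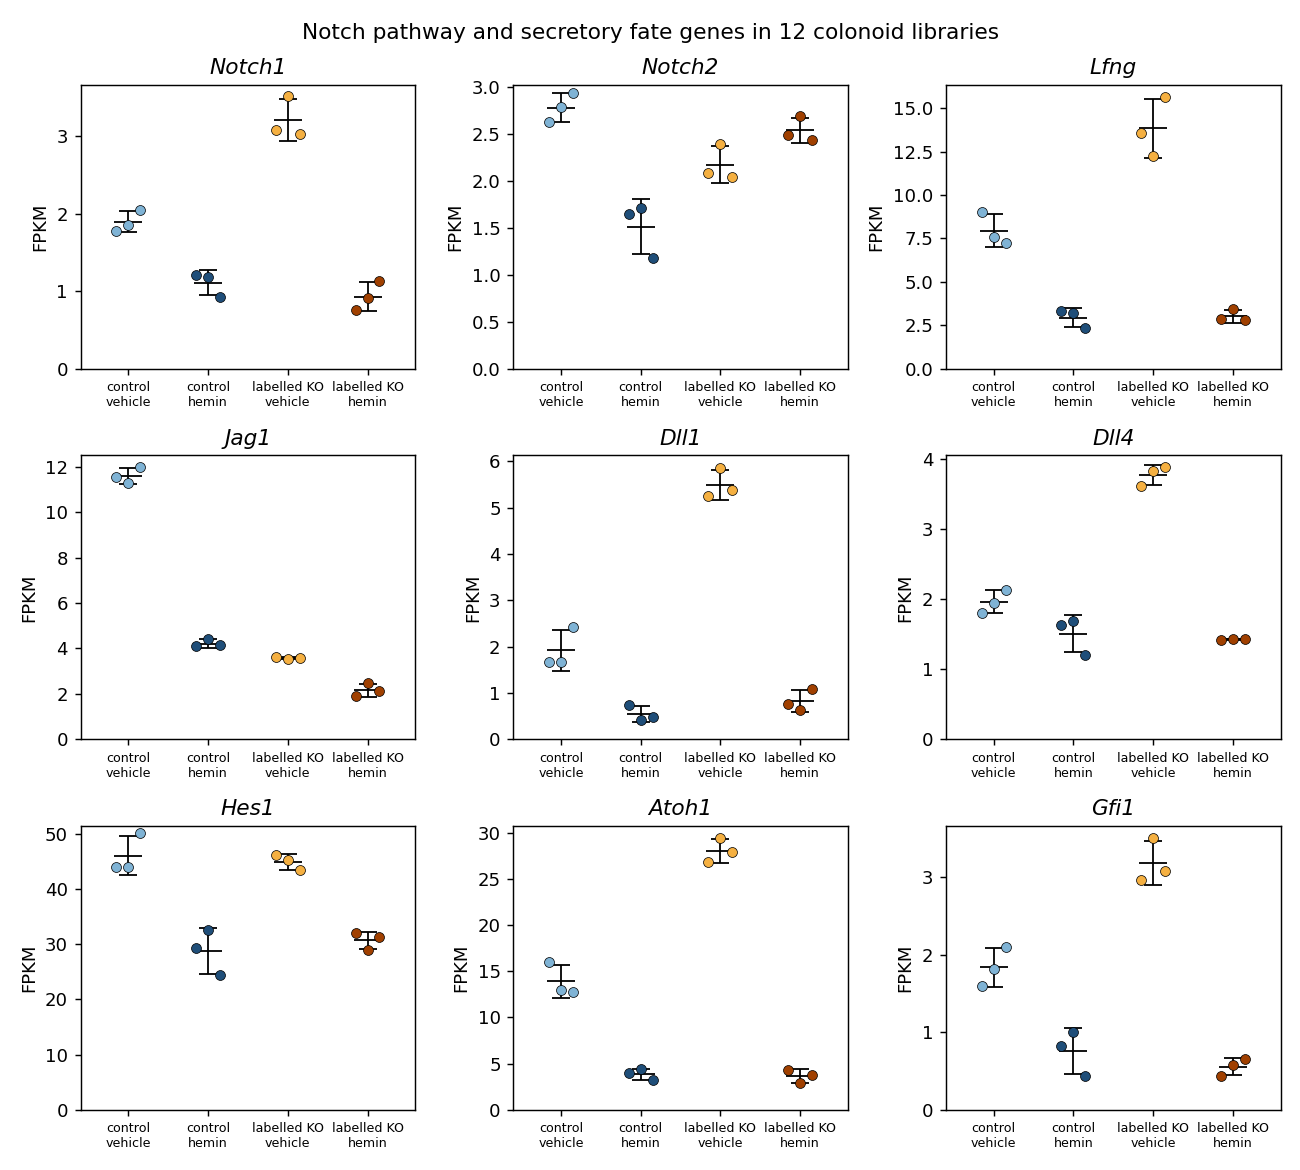
FPKM (vertical axes, linear and starting at 0) of the 9 genes in the 4 groups, with 1 point per library and the group mean with its SD (n = 3). Of the 9 genes, 6 were highest in labelled KO with vehicle and lowest in both hemin groups, whereas *Jag1* was highest in control with vehicle and *Hes1* differed mainly by treatment.

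With hemin, all members but *Notch2* in colonoids labelled KO were lower. In control colonoids all 9 passed the test in the lower direction (limma on log2(FPKM + 1), adjusted p under 0.05), where 26.7% of all tested genes were lower, and 3 of them (*Atoh1*, *Jag1*, *Lfng*) fell by more than 1 on the log2 scale, where 5.93% of genes did so. In colonoids labelled KO 8 passed in the lower direction, against 30.4% of all genes, and 5 fell by more than 1 (*Atoh1*, *Lfng*, *Dll1*, *Gfi1*, *Notch1*), against 8.07% of genes. The median log2 difference of the 9 was −0.70 in control and −1.13 in labelled KO, beside −0.01 and 0.00 over all tested genes. Differences are on the log2(FPKM + 1) scale, which understates changes of genes near 1 FPKM. The deposited values already equalise the median gene, and rescaling them to TPM, where each library sums to the same total, moved the median of all genes to −0.19 in control and to −0.31 in labelled KO. In TPM, 24.7% of genes were lower and 6.70% higher in control, and 37.0% were lower and 9.35% higher in labelled KO, in place of 23.2% and 29.9% higher in FPKM. With *Gm23935* left out of the TPM total, 17.7% of genes were higher and 32.7% lower in control, and 19.3% higher and 40.8% lower in labelled KO. In bulk RNA, fewer cells of a type and less RNA per cell cannot be told apart.

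For the 9 genes, the genotypes differed mainly with vehicle. In labelled KO against control with vehicle, 6 members were higher (*Atoh1*, *Gfi1*, *Lfng*, *Dll1*, *Dll4*, *Notch1*), where 17.4% of all tested genes were higher, and 1 was lower (*Jag1*), where 16.8% were lower. With hemin, *Notch2* was higher, where 19.7% of genes were higher, *Jag1* was lower, where 14.7% were lower, and the other 7 did not pass. The interaction, which is the hemin response in labelled KO minus that in control, was negative for 6 members, where 10.5% of genes were, and positive for 2, where 13.3% were. Groups did not overlap for 9 of 9 members with hemin in control, all lower, where 27.8% of tested genes were lower without overlap. In labelled KO 8 were lower and 1 was higher without overlap, where 37.2% and 37.2% of genes were. Between the genotypes with vehicle 6 were higher and 2 lower without overlap (30.6% and 26.9% of genes), and with hemin 1 was higher and 1 lower (23% and 17.9%). With vehicle *Dll1* was also higher by more than 1 on the log2 scale, where 3.53% of genes were, and *Jag1* lower by more than 1, where 3.27% were. The interaction of *Atoh1* was below −1, as for 2.56% of genes. The interaction, the hemin responses and the genotype differences share libraries and are not independent of each other.

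**Figure D2:**
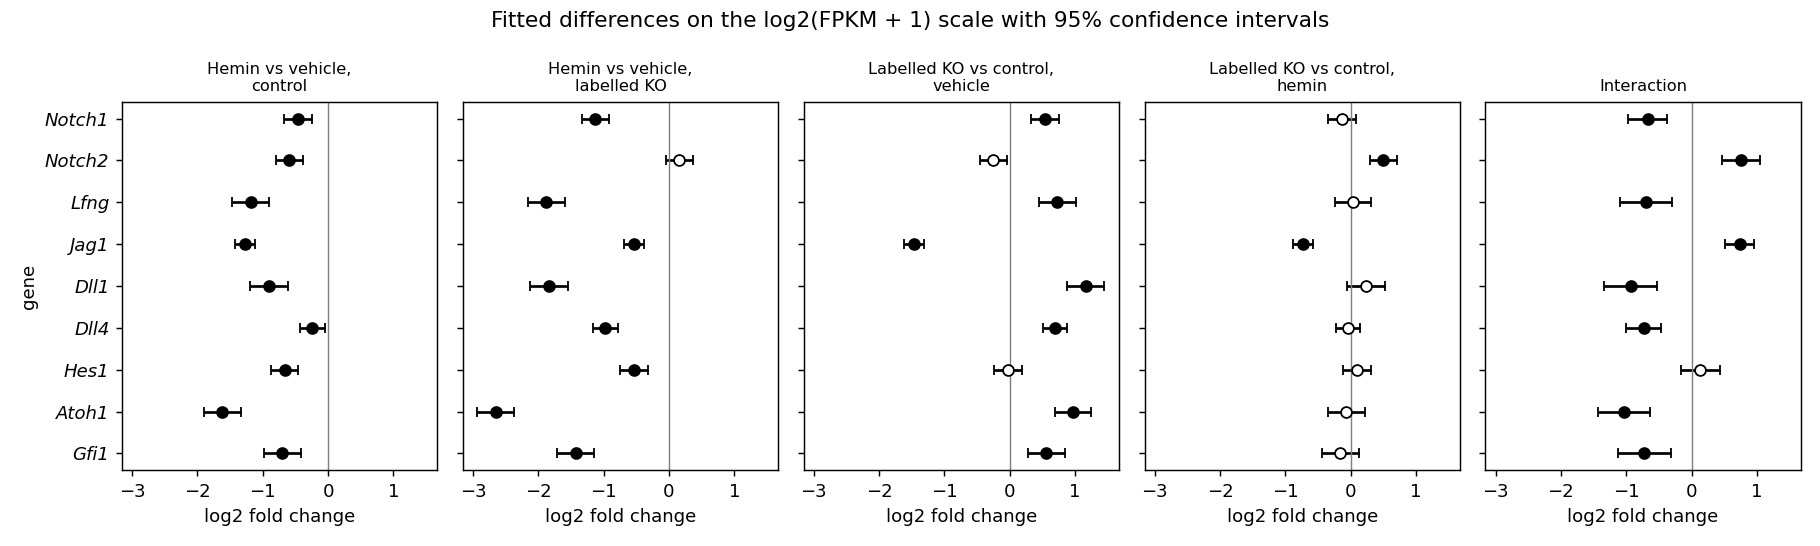
Fitted log2 differences (horizontal axes, log2(FPKM + 1) scale) of the 9 genes in 5 comparisons, with 95% confidence intervals and filled points where the adjusted p was under 0.05. Hemin responses lay below 0 in both genotypes except for *Notch2* in labelled KO, and 7 of the 9 genotype differences with hemin did not pass.

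Among the secretory factors, *Atoh1* encodes a basic helix-loop-helix protein that directs cells of the gut to secretory fates. Its gene lies at chr6:64729125-64731245 on the plus strand (mm10). *Atoh1* stood at 16.0, 13.0 and 12.8 FPKM in control with vehicle, and at 3.97, 4.39 and 3.23 with hemin. In labelled KO it stood at 26.9, 29.4 and 27.9 FPKM with vehicle, and at 4.32, 2.91 and 3.75 with hemin. Every library with hemin lay below every library with vehicle, and the libraries of the hemin groups overlapped. The fall was 3.61-fold in control (log2 −1.62 ± 0.13 SE, adjusted p = 2.2e-06) and 7.68-fold in labelled KO (log2 −2.65 ± 0.13 SE, adjusted p = 3.2e-08). With vehicle *Atoh1* was 2.02-fold higher in labelled KO (log2 0.97 ± 0.13 SE, adjusted p = 0.00014), whereas with hemin the difference was −0.07 (95% confidence interval −0.35 to 0.22, adjusted p = 0.73). That last difference turned to 0.07 without the 3 libraries rich in *Gm23935*. The interaction was −1.03 ± 0.18 SE (adjusted p = 0.0019).

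*Gfi1*, at chr5:107716657-107726036 on the minus strand, encodes a zinc finger repressor that acts downstream of *Atoh1* in goblet and Paneth cell differentiation. It stood at 1.60, 1.82 and 2.10 FPKM in control with vehicle and at 0.825, 1.01 and 0.430 with hemin. Colonoids labelled KO had 2.96, 3.50 and 3.08 FPKM with vehicle and 0.436, 0.573 and 0.656 with hemin. As for *Atoh1*, the vehicle groups did not overlap with each other or with the hemin groups, which overlapped. *Gfi1* was 2.44-fold lower with hemin in control (log2 −0.70 ± 0.13 SE, adjusted p = 0.00092) and 5.73-fold lower in labelled KO (log2 −1.43 ± 0.13 SE, adjusted p = 3.4e-06). The genotype difference was 0.56 with vehicle (adjusted p = 0.0059) and −0.16 with hemin (95% confidence interval −0.45 to 0.12, adjusted p = 0.37), the latter passing at 0.042 without replicate 3 of control with hemin. The interaction was −0.72 (adjusted p = 0.015), and it did not pass in TPM (0.068), with a pseudocount of 0.1 (0.052) or without the 3 libraries rich in *Gm23935* (0.11).

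*Hes1*, at chr16:30064384-30067796 on the plus strand, encodes the transcriptional repressor through which Notch restrains *Atoh1*. It stood at 44.1, 44.0 and 50.2 FPKM in control with vehicle and at 29.3, 32.7 and 24.5 with hemin. Levels in labelled KO were 46.2, 45.2 and 43.4 FPKM with vehicle and 32.0, 29.0 and 31.3 with hemin. Each of the 6 libraries with hemin lay below the 6 with vehicle, and the genotypes overlapped under either treatment. The fall was 1.60-fold in control (log2 −0.67 ± 0.10 SE, adjusted p = 0.00019) and 1.46-fold in labelled KO (log2 −0.53 ± 0.10 SE, adjusted p = 0.00063). *Hes1* was the 1 member with no passing genotype difference and no passing interaction. The genotype difference was −0.03 with vehicle (95% confidence interval −0.25 to 0.18, adjusted p = 0.84) and 0.10 with hemin (−0.11 to 0.31, adjusted p = 0.46), and the interaction was 0.13 (−0.17 to 0.43, adjusted p = 0.54). The sign of the vehicle difference and that of the interaction turned under TPM scaling, to 0.11 and −0.01.

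*Lfng*, at chr5:140607320-140615545 on the plus strand, encodes Lunatic fringe, a Golgi glycosyltransferase that adds sugars to Notch receptors and shifts their preference toward Delta ligands. It stood at 9.05, 7.59 and 7.23 FPKM in control with vehicle and at 3.32, 3.21 and 2.32 with hemin. The labelled KO values were 13.6, 12.3 and 15.7 FPKM with vehicle and 2.86, 3.46 and 2.78 with hemin. Levels were lowest in the hemin groups, which overlapped, and highest in labelled KO with vehicle, which overlapped with no other group. *Lfng* fell 2.70-fold with hemin in control (log2 −1.19 ± 0.13 SE, adjusted p = 2.1e-05) and 4.56-fold in labelled KO (log2 −1.88 ± 0.13 SE, adjusted p = 3.8e-07). It was 1.74-fold higher in labelled KO with vehicle (log2 0.73, adjusted p = 0.0010), and the difference with hemin was 0.04 (95% confidence interval −0.24 to 0.32, adjusted p = 0.86). The interaction was −0.69 (adjusted p = 0.017).

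Stretches upstream of the RefSeq start sites of *Lfng* and *Atoh1* are shown because, of the members searched, *Lfng* alone held a match to the first motif below and *Atoh1* held the most matches to the second, a choice made after the counts were seen. RefSeq promoters (GRCm38.p6, the assembly of mm10) matched 8 of the 9 genes. *Hes1* had no such promoter and was not searched. The 250 bases before each start were searched on both strands for GTGGGAA, the core letters bound by RBPJ, and for CACGCG, a class C site bound by Hes proteins. *Lfng* held 1 match to GTGGGAA, at 109 to 103 bases before its start, and 1 to CACGCG. *Atoh1* held 3 matches to CACGCG, at 131 to 126, 95 to 90 and 41 to 36 bases before its start, and none to GTGGGAA. Of 32851 promoters searched, 5.42% held GTGGGAA and 7.62% held CACGCG. The *Lfng* stretch ends where the deposited gene begins and leaves out the last 21 bases before the RefSeq start, from which its positions are counted, and the *Atoh1* stretch runs up to the start. The sequences run 5′ to 3′ on the plus strand, and capitals mark the matches, with CGCGTG as the reverse complement of CACGCG. A match is a description of the letters, and binding was not measured.
Lfng, chr5:140607091-140607319: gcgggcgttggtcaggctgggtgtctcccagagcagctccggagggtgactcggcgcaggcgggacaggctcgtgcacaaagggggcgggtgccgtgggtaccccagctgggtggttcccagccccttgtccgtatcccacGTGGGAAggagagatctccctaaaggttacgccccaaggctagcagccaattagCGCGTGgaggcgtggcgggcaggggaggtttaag
Atoh1, chr6:64728875-64729124: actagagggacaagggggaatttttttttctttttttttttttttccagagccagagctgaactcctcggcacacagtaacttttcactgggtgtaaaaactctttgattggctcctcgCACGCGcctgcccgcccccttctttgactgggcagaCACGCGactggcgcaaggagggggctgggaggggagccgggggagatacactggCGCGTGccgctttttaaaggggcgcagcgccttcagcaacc

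The ligands did not move alike. *Jag1*, at chr2:137081456-137116644 on the minus strand, encodes a Jagged ligand. It stood at 11.54, 11.30 and 11.99 FPKM in control with vehicle and at 4.09, 4.43 and 4.13 with hemin. Those labelled KO had 3.63, 3.52 and 3.56 FPKM with vehicle and 1.91, 2.46 and 2.11 with hemin. The 4 groups did not overlap, and labelled KO with vehicle already lay below control with hemin. *Jag1* fell 2.75-fold with hemin in control (log2 −1.27 ± 0.07 SE, adjusted p = 1.6e-07) and 1.66-fold in labelled KO (log2 −0.54 ± 0.07 SE, adjusted p = 5.4e-05). It was the 1 member lower in labelled KO under both treatments, by 3.25-fold with vehicle (log2 −1.46, adjusted p = 4.1e-08) and 1.95-fold with hemin (log2 −0.73, adjusted p = 1.2e-05). The interaction was 0.74 ± 0.10 SE (adjusted p = 0.00033), and in TPM it was 0.61 (adjusted p = 0.16).

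*Dll1*, at chr17:15367354-15376872 on the minus strand, encodes a Delta ligand displayed by secretory cells. It stood at 1.67, 1.66 and 2.43 FPKM in control with vehicle and at 0.748, 0.421 and 0.487 with hemin. In labelled KO the levels were 5.25, 5.86 and 5.38 FPKM with vehicle and 0.757, 0.635 and 1.09 with hemin. Libraries with hemin overlapped between genotypes, and labelled KO with vehicle stood above every other library. *Dll1* fell 3.48-fold with hemin in control (log2 −0.91 ± 0.13 SE, adjusted p = 0.00018) and 6.64-fold in labelled KO (log2 −1.84 ± 0.13 SE, adjusted p = 5.5e-07). It was 2.86-fold higher in labelled KO with vehicle (log2 1.16, adjusted p = 4.0e-05), and the difference with hemin was 0.23 (95% confidence interval −0.05 to 0.52, adjusted p = 0.20). The interaction was −0.93 (adjusted p = 0.0041), or −0.98 (0.057) with a pseudocount of 0.1.

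*Dll4*, at chr2:119325784-119335962 on the plus strand, encodes the other Delta ligand of the set. It stood at 1.81, 1.94 and 2.13 FPKM in control with vehicle and at 1.64, 1.69 and 1.20 with hemin. Libraries labelled KO gave 3.62, 3.83 and 3.89 FPKM with vehicle and 1.42, 1.43 and 1.43 with hemin. Libraries with hemin overlapped between genotypes and lay below both vehicle groups, narrowly so in control. The control difference was 1.30-fold (log2 −0.24 ± 0.09 SE, adjusted p = 0.035), and it did not pass under several settings, among them without replicate 3 of control with hemin (0.083), without replicate 2 or 3 of control with vehicle (0.077 and 0.12), in TPM (0.059), with no filter on low values (0.087) and when fitted on these groups alone (0.14). In labelled KO *Dll4* fell 2.64-fold (log2 −0.98 ± 0.09 SE, adjusted p = 2.8e-06), and with vehicle it was 1.92-fold higher in labelled KO (log2 0.69, adjusted p = 9.0e-05). With hemin the genotype difference was −0.04 (95% confidence interval −0.23 to 0.15, adjusted p = 0.75), and the interaction was −0.73 (adjusted p = 0.0014). The antisense gene *Gm14207* overlaps the 5′ end of *Dll4*, and whether counting used strand is not stated. It held 13 to 70 fragments per library. In control it stood at 2.22 to 3.11 FPKM with vehicle and at 1.54 to 3.13 with hemin, which overlap, and in labelled KO at 3.02 to 4.06 FPKM with vehicle and at 0.857 to 1.41 with hemin. Its part in the *Dll4* values was not tested.

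The receptors differed from each other. *Notch1*, at chr2:26457903-26516663 on the minus strand, and *Notch2*, at chr3:98013527-98150361 on the plus strand, are the receptors active in intestinal stem and progenitor cells. *Notch1* stood at 1.78, 1.86 and 2.05 FPKM in control with vehicle and at 1.21, 1.19 and 0.926 with hemin. Its labelled KO values were 3.08, 3.52 and 3.03 FPKM with vehicle and 0.756, 0.908 and 1.13 with hemin. Libraries with hemin overlapped below both vehicle groups. *Notch1* fell 1.71-fold with hemin in control (log2 −0.46 ± 0.10 SE, adjusted p = 0.0022) and 3.45-fold in labelled KO (log2 −1.13 ± 0.10 SE, adjusted p = 2.1e-06). It was 1.69-fold higher in labelled KO with vehicle (log2 0.54, adjusted p = 0.0011), and the difference with hemin was −0.13 (95% confidence interval −0.34 to 0.08, adjusted p = 0.33). The interaction was −0.67 (adjusted p = 0.0045), and it was −0.60 (0.052) without the 3 libraries rich in *Gm23935*.

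*Notch2* stood at 2.62, 2.78 and 2.93 FPKM in control with vehicle and at 1.65, 1.71 and 1.17 with hemin. In labelled KO it had 2.09, 2.39 and 2.04 FPKM with vehicle and 2.49, 2.69 and 2.44 with hemin. It was therefore lower with hemin in control, without overlap, and the labelled KO libraries with hemin all stood above those with vehicle. The fall in control was 1.84-fold (log2 −0.59 ± 0.09 SE, adjusted p = 0.00032), and the difference in labelled KO was 0.16 (95% confidence interval −0.05 to 0.36, adjusted p = 0.16), or −0.10 in TPM. *Notch2* was 1.68-fold higher in labelled KO with hemin (log2 0.50, adjusted p = 0.0016), and with vehicle the difference was −0.25 (adjusted p = 0.057). The interaction was 0.75 ± 0.13 SE (adjusted p = 0.0019), and in TPM it was 0.82 (adjusted p = 0.070).

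Ratios between members within a library do not depend on how libraries are scaled, since both values share the factor. The ratio of *Atoh1* to *Hes1* averaged 0.305 ± 0.054 (SD, n = 3) in control with vehicle, 0.134 ± 0.002 in control with hemin, 0.625 ± 0.038 in labelled KO with vehicle and 0.118 ± 0.018 in labelled KO with hemin. It was 2.25-fold lower with hemin in control and 5.32-fold lower in labelled KO, by the means of log2 ratios, and the hemin groups overlapped. So *Atoh1* fell by more than *Hes1* in each genotype, and with vehicle the ratio was 2.07-fold higher in labelled KO. The smallest two-sided exact permutation p that 3 against 3 libraries allow is 0.1, and ratios whose groups did not overlap reached it (0.15 after Benjamini-Hochberg adjustment over 20 comparisons), so no ratio could pass 0.05.

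The make-up of the ligands also differed. The ratio of *Dll1* to *Jag1* was 0.165 ± 0.033 (SD, n = 3) in control with vehicle and 1.54 ± 0.11 in labelled KO with vehicle, a 9.44-fold difference. *Jag1* was thus the most abundant of the 3 ligands per length in control with vehicle, and *Dll1* in labelled KO with vehicle. With hemin the ratio was 0.132 ± 0.045 in control, overlapping with vehicle, and 0.391 ± 0.130 in labelled KO. The ratio of *Dll4* to *Jag1* rose 2.10-fold with hemin in control and fell 1.59-fold in labelled KO, each without overlap of the libraries. The ratio of *Notch1* to *Notch2* was 0.682 ± 0.015 in control with vehicle and 0.740 ± 0.047 with hemin, which overlapped. In labelled KO it was 1.48 ± 0.01 with vehicle and 0.368 ± 0.084 with hemin, a 4.08-fold difference. The ratio of *Gfi1* to *Atoh1* overlapped in all 4 comparisons, with means from 0.113 to 0.190.

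**Figure D3:**
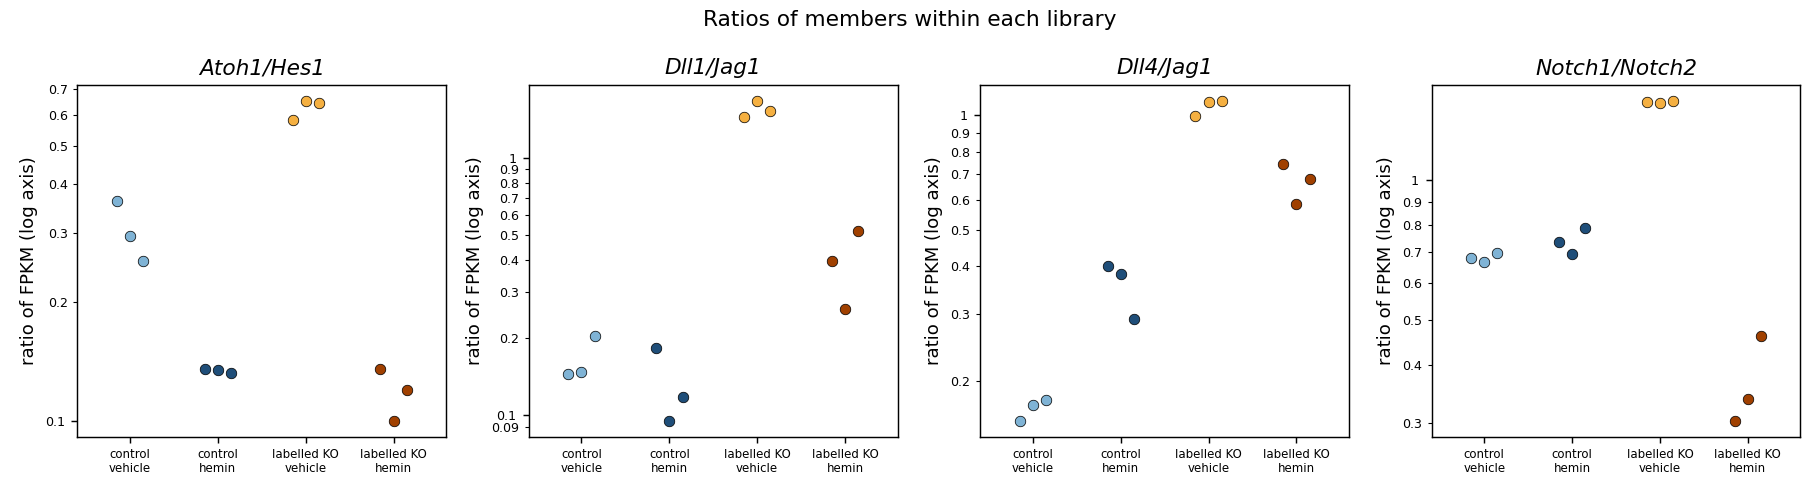
Ratios of FPKM within each library (vertical axes, log scale) for 4 pairs of members, with 1 point per library in the 4 groups. The 3 points of labelled KO with vehicle were the highest in each panel, and the hemin groups overlapped for *Atoh1*/*Hes1*.

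Other genes of the pathway were read from 7 lists of 61 genes, of which 43 passed the filter on low values. In control 12 of the 43 were higher and 14 lower with hemin, where 23.2% of all tested genes were higher and 26.7% lower. In labelled KO 13 were higher and 17 lower, where 29.9% of genes were higher and 30.4% lower. Of 9 tested genes of ligand and receptor processing, 6 rose with hemin in control and 8 in labelled KO, and none fell. These counts depended on the scaling. In TPM 1 was higher in each genotype, where 6.70% of all tested genes were higher in control and 9.35% in labelled KO. In TPM without *Gm23935* 4 were higher in control and 6 in labelled KO, where 17.7% and 19.3% of genes were. *Aph1b*, a subunit of γ-secretase, rose by 0.66 (adjusted p = 0.00017) in control and 0.90 (adjusted p = 1.1e-05) in labelled KO on the log2 scale. It passed the filter only through the hemin groups, which favoured its rise. With vehicle it reached at most 0.951 FPKM in control and 0.863 in labelled KO. *Adam10*, the protease of the first cut, rose by 0.39 (adjusted p = 0.0070) and 0.65 (adjusted p = 0.00019). The γ-secretase genes *Psen2* (0.56, adjusted p = 0.0017) and *Psenen* (0.48, adjusted p = 0.00012) rose in control, and *Furin*, a receptor-processing protease (0.70, adjusted p = 0.0012), rose in labelled KO. None of the 3 tested glycosyltransferases passed with hemin in either genotype, and in TPM without *Gm23935* 1 was lower in labelled KO. Of 7 genes of the nuclear complex and its corepressors, 2 rose and none fell in control, and 1 rose and 1 fell in labelled KO. *Kat2b*, which encodes a histone acetyltransferase, rose in both genotypes, by 0.54 (adjusted p = 0.00076) and 0.73 (adjusted p = 5.7e-05), and the histone deacetylase gene *Hdac1* fell in labelled KO (−0.25, adjusted p = 0.017). In TPM none of the 7 passed as higher in either genotype, *Kat2b* included, and 2 were lower in labelled KO. In TPM without *Gm23935*, 1 was higher in each genotype, and none was lower in control and 5 in labelled KO. Of 7 genes of endocytosis and turnover, 3 rose and 1 fell with hemin in control, and 4 rose and 1 fell in labelled KO, whereas in TPM none rose and 1 fell in each, and in TPM without *Gm23935* 2 rose in control and none in labelled KO. *Mib2* (0.39, adjusted p = 0.0087, and 0.38, adjusted p = 0.0076), *Numb* (0.34, adjusted p = 0.016, and 0.45, adjusted p = 0.0025) and *Fbxw7* (0.34, adjusted p = 0.0017, and 0.24, adjusted p = 0.0099) rose in control and in labelled KO. *Dtx4*, which encodes a Deltex ubiquitin ligase, fell in both, with log2 differences of −0.63 (adjusted p = 1.7e-05) and −1.80 (adjusted p = 4.0e-09).

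Of the other ligands and receptors, *Notch4* and *Jag2* were the 2 genes of 5 that passed the filter. *Notch4* fell with hemin, with log2 differences of −0.45 in control (adjusted p = 0.0022) and −1.73 in labelled KO (adjusted p = 8.3e-08), and was 1.42 higher in labelled KO with vehicle (adjusted p = 6.4e-07). It passed the filter only through labelled KO with vehicle (2.65 to 3.21 FPKM), so the filter favoured both differences from that group. In control *Notch4* reached at most 0.515 FPKM with vehicle and 0.120 with hemin. *Jag2* fell in control (−0.67, adjusted p = 0.0012), did not pass in labelled KO (−0.20, adjusted p = 0.21), and was lower in labelled KO with vehicle (−0.58, adjusted p = 0.0047). The genotype difference of *Jag2* with vehicle did not pass in TPM, and its fall with hemin in labelled KO passed in TPM without *Gm23935*. Among 6 other Notch target genes, the feedback inhibitor *Nrarp* alone passed the filter, and it fell by 0.78 in control (adjusted p = 0.011) and by 0.56 in labelled KO (adjusted p = 0.043).

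Of 14 tested genes on the list of secretory transcription factors, 10 fell and 1 (*Neurog3*) rose with hemin in control, where 26.7% of all tested genes were lower and 23.2% higher. In labelled KO 13 fell and none rose, where 30.4% of genes were lower and 29.9% higher. With vehicle, 10 were higher in labelled KO and none lower, where 17.4% of genes were higher and 16.8% lower, and 4 did not pass. *Pax4* (1.23 to 2.32 FPKM) and *Neurod1* (2.67 to 3.00 FPKM) passed the filter only through labelled KO with vehicle. The filter therefore favoured their calls as higher there and as lower with hemin in labelled KO, and both are in these counts. *Spdef*, which drives goblet cell maturation, fell in both genotypes, with log2 differences of −2.67 in control (adjusted p = 6.7e-06) and −4.37 in labelled KO (adjusted p = 9.6e-08). *Creb3l1*, an endoplasmic reticulum stress factor, fell likewise, with −4.45 (adjusted p = 8.0e-09) and −6.36 (adjusted p = 2.2e-10). *Neurog3*, which specifies enteroendocrine cells, rose with hemin in control, from 2.65 ± 0.33 to 4.18 ± 0.34 FPKM (SD, n = 3; log2 0.51, adjusted p = 0.0022), although in TPM none of the 14 passed as higher in control. It was 2.57 higher on the log2 scale in labelled KO with vehicle (adjusted p = 1.5e-08), fell with hemin there (−3.73, adjusted p = 6.3e-10), and with hemin was lower than in control (−1.67, adjusted p = 5.0e-07). Between the genotypes with hemin, 5 of the 14 were higher in labelled KO and 4 lower, where 19.7% of genes were higher and 14.7% lower. In TPM 3 were higher and 4 lower, where 9.03% of genes were higher and 7.52% lower. The largest difference there was in *Foxa2*, a forkhead factor, which was higher in labelled KO with hemin (1.95, adjusted p = 4.3e-07) and with vehicle (3.00, adjusted p = 1.3e-08).

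**Figure D4:**
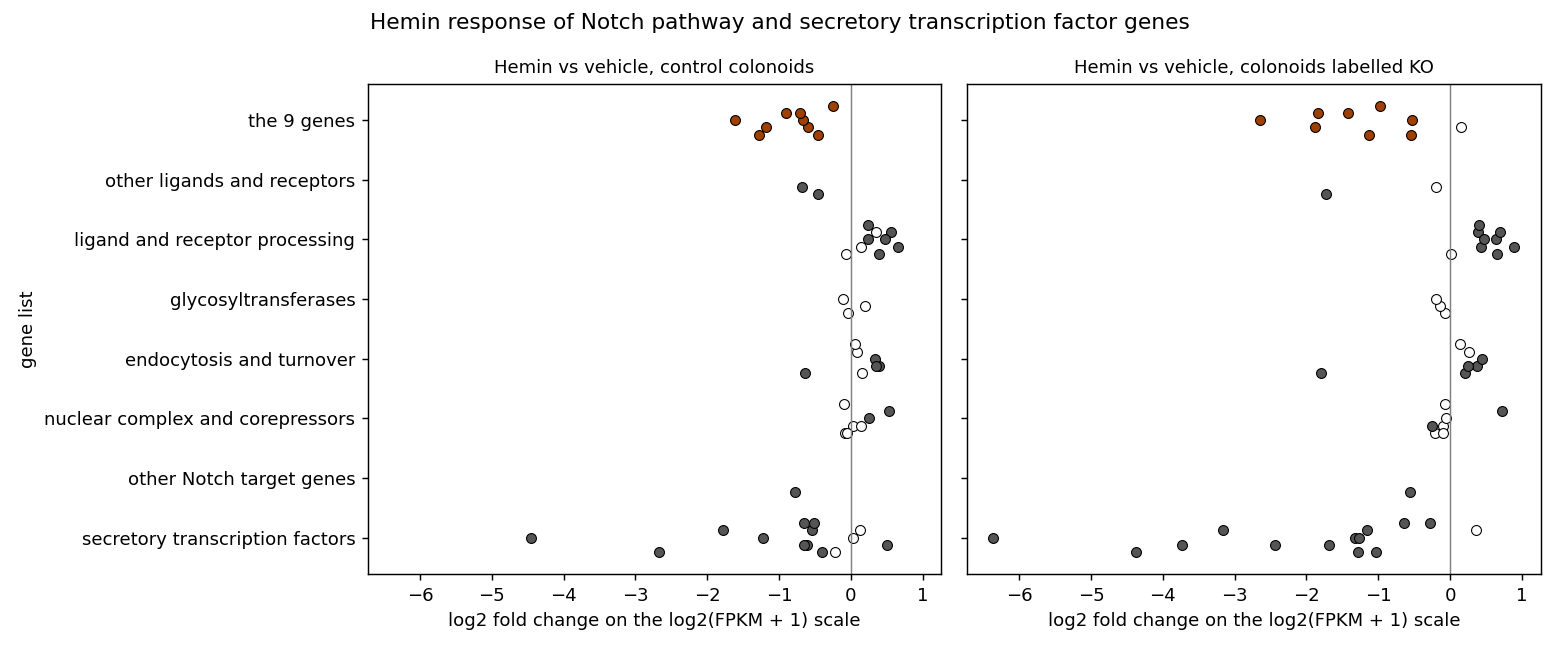
Log2 differences with hemin (horizontal axes, log2(FPKM + 1) scale) of the tested genes on the 7 lists and of the 9 genes, in control (left) and labelled KO (right), with 1 point per gene and filled points where the adjusted p was under 0.05. The 9 genes and the secretory transcription factors lie mostly below 0, and the genes of ligand and receptor processing lie mostly above it.

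Markers of mature cell types moved beside these genes. The 8 goblet and deep crypt secretory markers, all tested, summed to 1699 to 1940 FPKM in control with vehicle, 1072 to 1424 with hemin, 2453 to 2578 in labelled KO with vehicle and 600 to 660 with hemin. Of them 5 fell and 1 rose with hemin in control (26.7% and 23.2% of all tested genes), and 7 fell in labelled KO (30.4% of genes), whereas in TPM none rose in control. Between the genotypes with hemin, 1 of the 8 was higher in labelled KO and 6 were lower (19.7% and 14.7% of genes). With vehicle 4 were higher in labelled KO and 3 lower (17.4% and 16.8% of genes). The higher sum there came mostly from *Spink4*, at means of 124 FPKM in control and 535 in labelled KO, and *Agr2*, at 196 and 434. The mucin gene *Muc2* (−0.50, adjusted p = 0.0046), *Fcgbp* (−0.69, adjusted p = 0.0014) and *Zg16* (−0.39, adjusted p = 0.012) were lower. In TPM, however, none of the 8 passed as lower and 3 were higher, where 6.26% of all tested genes were lower and 11.6% higher. The 5 enteroendocrine markers (4 tested) summed to 33.2 to 41.5 FPKM in control with vehicle and 536 to 564 in labelled KO with vehicle, and to 23.5 to 33.3 and 384 to 477 with hemin. In labelled KO most of that sum was *Pyy*, at means of 403 FPKM with vehicle and 340 with hemin, beside 7.17 and 3.28 in control. The 4 Paneth markers (3 tested) summed to 73.4 to 99.1 FPKM in control with vehicle, 21.9 to 33.3 with hemin, 66.0 to 71.9 in labelled KO with vehicle and 3.15 to 3.97 with hemin, and *Ang4* made up most of it in every group, with means of 73.0, 22.1, 65.0 and 2.89 FPKM in the same order. None of 4 tuft markers passed the filter. The 7 absorptive colonocyte markers summed to 2281 to 2501 FPKM in control with vehicle, 4316 to 6713 with hemin, 1944 to 1995 in labelled KO with vehicle and 3370 to 4220 with hemin, with 3 higher and 4 lower in control and 2 higher and 4 lower in labelled KO, beside 23.2% higher and 26.7% lower of all genes in control and 29.9% and 30.4% in labelled KO. *Car1* carried that sum, with means of 2129, 4918, 1314 and 2849 FPKM in the same order. Their part in the values of the 9 genes was not tested.

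The genes whose profile over the 12 libraries lay closest to that of *Atoh1*, by the root mean square difference of centred log2(FPKM + 1), were *Plch2* (0.142), *Rasd1* (0.177) and *Snhg18* (0.185). *Plch2* averaged 3.34 ± 0.24 FPKM (SD, n = 3) in control with vehicle, 0.297 ± 0.148 with hemin, 7.09 ± 0.31 in labelled KO with vehicle and 0.274 ± 0.061 with hemin. For *Hes1* they were *Farsa* (0.0687), *Fzd1* (0.0737) and *Slc25a15* (0.0779). *Fzd1* averaged 13.1 ± 1.2 FPKM in control with vehicle, 8.14 ± 1.09 with hemin, 13.4 ± 0.3 in labelled KO with vehicle and 7.82 ± 0.39 with hemin.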

How the data were processed

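Poly-A RNA of mouse colonoids was sequenced in 12 libraries of 4 groups, and library preparation, sequencing and analysis were by Novogene. The submitters' processing notes name fastp, HISAT2 2.0.5, featureCounts 1.5.0-p3 and mm10. Strand use in counting is not given in the sources used here. The authors deposited FPKM of whole genes, already scaled so that median-of-ratios factors are equal across libraries, and 100% of the values were whole multiples of 1 fragment within a tolerance of 0.01 fragments, so fragments were recovered. Between 11648801 and 25101868 fragments per library set the precision. On log2(FPKM + 1), limma 3.58.1 (R 4.3.3) estimated the 4 group means from all libraries, with an intensity trend, for 12740 genes with FPKM of at least 1 in at least 3 libraries. The p-values were adjusted by the Benjamini-Hochberg method over these genes. A gene passed at an adjusted p under 0.05. Functions were tested on simulated data. The 9 members and all lists were chosen with earlier results of these data known. All 9 are named. Of each gene list, those named in a comparison are among its 4 passing genes with the largest absolute change, and not all 4 are named in each. *Hmox1* checks the labels, and *Hoxb13*, *Gm23935*, *Gm14207*, the cell type markers named and, in control, *Neurog3* were chosen after their values were seen. Alternatives tried were TPM with and without *Gm23935*, median-of-ratios scaling, 0.1 as pseudocount, all genes kept whatever their level, only genes of mean FPKM 5 or more, a replicate block, no trend, only the groups compared, limma-voom on fragments and each library left out. Leaving out 3 libraries rich in *Gm23935* was added after seeing the data.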

Additional observations from a re-analysis of the deposited data

Results flagged for a closer look

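The hemin response differed between the genotypes for 8 of the 9 genes, by the interaction term of the limma fit with Benjamini-Hochberg adjustment over 12740 genes, of which 13.3% passed with a positive and 10.5% with a negative interaction. The response was more negative in colonoids labelled KO for *Atoh1* (log2 −1.03, adjusted p = 0.0019), *Dll1* (−0.93, adjusted p = 0.0041), *Dll4* (−0.73, adjusted p = 0.0014), *Gfi1* (−0.72, adjusted p = 0.015), *Lfng* (−0.69, adjusted p = 0.017) and *Notch1* (−0.67, adjusted p = 0.0045). It was less negative for *Jag1* (0.74, adjusted p = 0.00033), and for *Notch2* the interaction was 0.75 (adjusted p = 0.0019). The 6 genes with a negative interaction were those higher in labelled KO with vehicle, and their levels with hemin overlapped between the genotypes.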

How the results depend on the processing

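Leaving out each library in turn, the members passing numbered 8 to 9 with hemin in control, 8 to 8 in labelled KO, 7 to 7 for the genotypes with vehicle, 2 to 3 with hemin and 8 to 8 for the interaction, and those also changed by more than 1 numbered 3 to 3, 5 to 5, 2 to 3, 0 to 0 and 0 to 2. With a mean FPKM of at least 5, 4 members were tested, and 4, 4, 3, 1 and 3 passed in that order, with 2 changed by more than 1 in labelled KO with hemin and 1 between the genotypes with vehicle, in place of 5 and 2. Of all genes at that setting, 27.9% were higher and 27.8% lower with hemin in control, and 38.4% and 28.8% in labelled KO. Between the genotypes 16% were higher and 19.3% lower with vehicle, and 22.9% and 13.5% with hemin. For the interaction 17.2% were positive and 8.47% negative. In TPM 5 interactions passed, all negative, in place of 8. Of all tested genes in TPM, 4.69% passed with a negative and 2.45% with a positive interaction, in place of 10.5% and 13.3%. Members changed by more than 1 with hemin in control numbered 5 with a pseudocount of 0.1, in TPM with or without *Gm23935* and with limma-voom, in place of 3. For the interaction they numbered 2, 3, 4 and 5 under these settings in turn, and 0 without the 3 libraries rich in *Gm23935*, in place of 1. With limma-voom 1 member changed by more than 1 between the genotypes with hemin and 4 with vehicle, in place of 0 and 2. The shares of all genes changed by more than 1 under these other settings were not counted.

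Directions turned only for differences that had not passed. Between the genotypes with hemin and with each library left out in turn, *Atoh1* ranged from −0.168 to 0.0554 (above 0 without replicate 2 of either group), *Dll4* from −0.133 to 0.0119 (above 0 without replicate 2 of control), *Hes1* from −0.0078 to 0.194 (below 0 without replicate 3 of control) and *Lfng* from −0.0848 to 0.105 (below 0 without replicate 3 of control or 2 of labelled KO). *Atoh1* was 0.0746 without the libraries rich in *Gm23935*, and *Lfng* −0.0044 in TPM without *Gm23935*. With vehicle *Hes1* ranged from −0.0635 to 0.0293 (above 0 without replicate 3 of control), and was 0.115 in TPM, 0.0316 in TPM without *Gm23935* and 0.0338 with limma-voom. Its interaction was −0.0106 in TPM and −0.007 with limma-voom. *Notch2* with hemin in labelled KO was −0.10 in TPM. *Notch2* between the genotypes with vehicle passed with no intensity trend (adjusted p = 0.049) and when fitted on these groups alone (0.025). The cause was not tested.

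Replicate numbers did not pair the libraries: the deviations of same-numbered libraries correlated at a mean r of −0.04 (−0.33 to 0.18), and others at 0.02. With the replicate number as a block, *Dll4* with hemin in control no longer passed (−0.24, adjusted p = 0.062), so 8 passed there, and no other call on the 9 genes changed. Each group has 3 libraries, and 16 fragments behind the lowest *Gfi1* value limit its precision.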
